A study of Mus musculus with 4 samples.

Results

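The nuclear-coded genes of the mitochondrial respiratory chain were followed across the cell types of transplanted mouse hearts. They were taken as all gene symbols that begin with Nduf, Uqcr, Cox4i, Cox5, Cox6, Cox7, Cox8 or Atp5, with names containing -ps left out, which gave 92 of the 34097 genes counted. By complex, 40 belong to complex I, 8 are complex I assembly factors (symbols beginning Ndufaf, kept apart here), 8 belong to complex III, 18 to complex IV and 18 to complex V. Complex II has no gene under these names and entered only as a comparison list. Hearts were collected on day 5 after transplantation, digested with enzymes and profiled by droplet single-cell RNA sequencing, in 3 allogeneic libraries (replicates 1, 2 and 3; donor and recipient genetically different) and 1 isogeneic library (replicate 2; genetically identical), called the isograft below. The series title names VISTA, an immune checkpoint protein, in macrophages, but the labels give no treatment beyond allogeneic or isogeneic grafting. The labels name no strain, sex, age, donor or recipient genotype or cell sort for any of the groups, so that for every gene a strain difference and a response to the allograft cannot be told apart. They do not say that the replicates are separate animals either, and the p-values therefore cover the spread from library to library, whose source may be technical.

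The respiratory chain passes electrons from NADH through complex I and from succinate through complex II to complex III, then by cytochrome c to complex IV, which reduces oxygen. Complexes I, III and IV pump protons across the inner mitochondrial membrane, and complex V, the ATP synthase, uses that gradient to make ATP. The core subunits of complexes I, III, IV and V include proteins coded by mitochondrial DNA, which are not among the members, and the heart muscle cell is known for its dense content of these complexes.

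Sequencing gave between 51054446 and 63434265 unique molecular identifiers (UMIs, each marking 1 captured RNA molecule) in the allogeneic libraries and 100038951 in the isograft. Filtering left 4737, 7663 and 5980 allogeneic cells and 10341 from the isograft. Of the 32465 distinct barcodes, 118 occurred in 2 libraries and 0 in more. Cells were put into classes by markers, none of them a member, and each class held a median of 5 to 9 of its 10 markers per cell. Allogeneic replicate 3 stood apart from the other allografts, with 2038 fibroblasts against 62 and 140 and 431 macrophages against 1820 and 2250. T cells were rare in the isograft, 32 cells with 57806 UMIs in all, so that 3 UMIs there already make 51.9 CPM. CPM, the scaled count used throughout, is a gene's UMIs over all UMIs of its class in a library, a level not divided by gene length, and since reads come from the 3 prime end of each RNA no such division was made. CPM is a share of the RNA captured, so fewer transcripts of a gene and more of other transcripts per cell cannot be told apart. Summed CPM over the members also depends on the most abundant of them. Ndufb11b, Cox8c and Cox7b2 had under 3 UMIs in every library of each of the 8 classes compared. The symbol Atp5o stands on 2 gene identifiers, 1 of them (chromosome 16, 91684398 to 91926982) overlapping Donson, Cryzl1 and Itsn1, and is named below as the second Atp5o identifier. The entry named Ndufb1 is annotated as Ndufb1-ps, a bidirectional promoter long noncoding RNA, in GENCODE M21.

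Promoters were read from RefSeq (build GRCm38.p6), where 74 of the 91 distinct member symbols had an entry. Letters bound by regulators known for respiratory chain genes were counted on both strands of windows of 300 bases (250 before and 50 after the start). The letters of nuclear respiratory factor 1 (NRF1), GCGC, any 2 bases, then GCGC, occurred in 20 of 79 member windows (25.3%) and in 6.23% of all 32851 windows of that length. CCGGAAG, the core bound by ETS factors such as GABP, occurred in 17 (21.5%) and in 8.86% of all. AAGATGGC, the letters of YY1, occurred in 11 (13.9%) and in 2.75% of all, and TCAAGGTCA, those of oestrogen-related receptors, in 1 (1.27%) and in 0.423% of all. A match describes the sequence only and is neither a binding site nor a cause. The stretches below lie upstream of the RefSeq start and overlap no exon annotated in GENCODE M21, and NRF1 letters stand in capitals. Ndufa4 (minus strand, chr6:11907498-11907700) and Cox7a2l (minus strand, chr17:83514334-83514583, between exons of a longer annotated transcript) are shown because both are described below in the comparison of allografts with the isograft. There Cox7a2l was called in endothelial cells, while Ndufa4 passed the main test in no class. Neither window of 300 bases held any of the 4 strings, which says only that these letters are not in it. Ndufv2 (minus strand, chr17:66101560-66101809), Ndufaf4 (plus strand, chr4:24897833-24898082) and Ndufb4 (minus strand, chr16:37654454-37654618) are shown as the 3 members lowest in neutrophils whose NRF1 letters fall in such a stretch. In Ndufv2 the capitals hold 2 overlapping matches.
Ndufa4: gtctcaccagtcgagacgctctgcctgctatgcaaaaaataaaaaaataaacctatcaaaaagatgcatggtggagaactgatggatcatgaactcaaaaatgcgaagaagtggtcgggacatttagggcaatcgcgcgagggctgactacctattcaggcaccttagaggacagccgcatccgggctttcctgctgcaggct
Cox7a2l: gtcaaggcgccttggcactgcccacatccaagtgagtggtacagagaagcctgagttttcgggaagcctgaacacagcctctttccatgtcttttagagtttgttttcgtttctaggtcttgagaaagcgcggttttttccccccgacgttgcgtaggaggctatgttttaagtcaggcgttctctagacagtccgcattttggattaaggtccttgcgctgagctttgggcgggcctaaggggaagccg
Ndufv2: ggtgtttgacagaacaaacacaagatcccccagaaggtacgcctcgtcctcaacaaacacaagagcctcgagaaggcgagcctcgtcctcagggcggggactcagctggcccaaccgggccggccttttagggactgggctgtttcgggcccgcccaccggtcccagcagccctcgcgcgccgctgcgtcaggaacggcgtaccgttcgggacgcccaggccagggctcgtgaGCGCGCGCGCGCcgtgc
Ndufaf4: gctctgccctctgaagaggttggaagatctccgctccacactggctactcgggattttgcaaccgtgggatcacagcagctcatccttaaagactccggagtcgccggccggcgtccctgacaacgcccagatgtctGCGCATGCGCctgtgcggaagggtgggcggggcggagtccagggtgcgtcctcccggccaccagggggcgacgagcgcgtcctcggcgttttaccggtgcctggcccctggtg
Ndufb4: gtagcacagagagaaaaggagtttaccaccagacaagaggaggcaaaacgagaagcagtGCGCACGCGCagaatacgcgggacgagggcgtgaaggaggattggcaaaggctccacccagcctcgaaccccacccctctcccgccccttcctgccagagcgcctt

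The sum of the members separated neutrophils and heart muscle droplets from the other classes. Over the 4 libraries, the summed CPM of all members ran from 23967 to 28718 in macrophages, from 18897 to 21953 in fibroblasts and from 18171 to 25051 in endothelial cells. Neutrophils were below all of these in every library, with 8736, 8091 and 4798 in the 3 allografts, in replicate order, against 8828. Droplets rich in heart muscle transcripts, 4, 15 and 5 per allograft with 0 in the isograft, were above all of them, at 65080, 99715 and 102753. These droplets were set by the share of heart muscle markers and held few UMIs (4287, 29815 and 5557), so their values are given without a test.

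Neutrophils, short-lived granulocytes known to rely on glycolysis, had less of most of the set. Among 88 members tested in edgeR's quasi-likelihood test with the library as a block, 60 were lower and 2 higher in neutrophils than in the mean of the other 5 classes (adjusted p under 0.05 and at least 1 on the log2 scale), against a background of 26.7% of all 13307 genes lower and 17.2% higher. Leaving out 1 allogeneic library at a time gave 51 to 65 called members in either direction, where 32.5%, 40.3% and 40.7% of all genes were called without replicates 3, 1 and 2. The median difference was -1.43 over the members and -0.59 over all genes. By complex, 30 of 39 tested members of complex I were lower, 6 of 8 assembly factors, 6 of 8 of complex III, 5 of 15 of complex IV and 13 of 18 of complex V. The share called was smallest in complex IV, whose median difference was -0.94 against -1.49 for complex I, -1.64 for complex III and -1.54 for complex V.

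**Figure D1:**
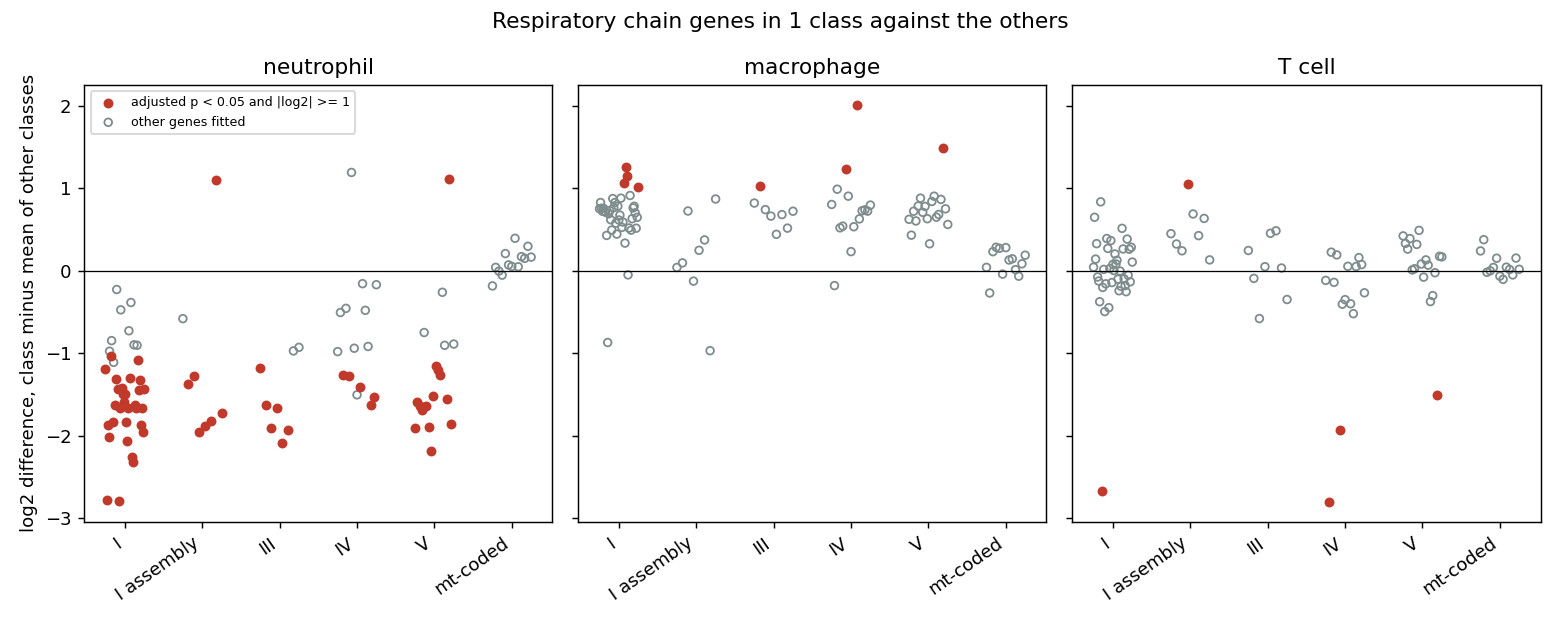
Log2 difference of each fitted gene between 1 class and the mean of the other 5 (vertical axis), in panels for neutrophils, macrophages and T cells, by complex on the horizontal axis with the subunits coded by mitochondrial DNA last, filled red where called. In neutrophils 60 members are called below 0 while the mitochondrially coded subunits lie near 0 (median 0.07), and in macrophages most members lie above 0 (median 0.71).

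Ndufa9, an accessory subunit of complex I, was measured at 25.7, 8.21 and 2.33 CPM in the neutrophils of the 3 allografts and 0 in the isograft, on 4, 2, 2 and 0 UMIs, against 52.6 to 57.3 in macrophages. It had the lowest fitted difference, -2.79 (SE 0.40, adjusted p = 3.85e-06). Ndufa10, another accessory subunit, was measured at 25.7, 16.4, 3.50 and 12.1 CPM in neutrophils and at 94.0 to 119 in macrophages, a difference from the other classes of -2.78 (SE 0.30, adjusted p = 5e-08). Its neutrophil values rest on few UMIs, as 3 UMIs make 19.3, 12.3, 3.50 and 7.24 CPM there. In both genes no neutrophil value reached the lowest macrophage value, and replicate 3 was lowest among the allografts. Ndufc2 (-2.32) and Ndufc1 (-2.25), small membrane-arm subunits of complex I, and Atp5g3 (-2.19), 1 of the genes for subunit c of the ATP synthase rotor, followed. Atp5g3 was measured at 70.7, 78.0, 23.3 and 57.9 CPM in neutrophils and 295 to 388 in macrophages, with no overlap.

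The members shown by sequence lay in the same range. Ndufv2, an iron-sulphur subunit of complex I, was measured at 51.4, 41.1, 12.8 and 26.6 CPM in neutrophils (-1.95, SE 0.22, adjusted p = 1.13e-07). Ndufaf4, a complex I assembly factor, was at 6.42, 20.5, 3.50 and 0 (-1.95, SE 0.53, adjusted p = 0.00356). Only its replicate 2 value was above the level of 3 UMIs (19.3, 12.3, 3.50 and 7.24 CPM in the same order). Ndufb4, an accessory subunit, was at 12.8, 8.21, 4.66 and 4.83 on 2, 2, 4 and 2 UMIs (-1.84, SE 0.39, adjusted p = 0.000429). Ndufv2 and Ndufb4 were below every macrophage library (134 to 162 and 20.6 to 48.2 CPM), while Ndufaf4 in replicate 2 was within the macrophage range (19.6 to 22.2 CPM). The 20 member rows with NRF1 letters in a window had a median neutrophil difference of -1.65 and the 53 without of -1.32. The letters occurred in 20 of 56 windows (35.7%) of members called lower in neutrophils and in 1 of 22 windows (4.55%) of members not called lower, the latter belonging to Atp5o, whose identifiers fell on both sides. Over all other genes the shares were 16.7% and 10.7%. The ETS letters had the opposite order in the members, 9 of 56 windows (16.1%) of those called lower and 8 of 22 (36.4%) of the rest, and over all other genes 23.2% and 14.5%. The YY1 letters occurred in 14.3% and 13.6% of the members' windows, and those of oestrogen-related receptors in 1 of 56 and 0 of 22. The split by NRF1 letters was noticed after the data had been seen and carries no test.

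Other members did not pass the test. Cox8a, a small subunit of complex IV, was measured at 655, 636, 561 and 809 CPM in neutrophils (-0.17, SE 0.19, adjusted p = 0.489), and Atp5l, subunit g of the ATP synthase, at 360, 361, 284 and 427 (-0.26, SE 0.15, adjusted p = 0.158). Cox5b, another complex IV subunit, differed by -0.46 (adjusted p = 0.0696). The 2 members called higher were Ndufaf7, a methyltransferase that acts in complex I assembly, at 19.3, 16.4, 23.3 and 26.6 CPM (1.10, adjusted p = 0.00293; the call ended without replicate 3, at 0.72 with an adjusted p of 0.151, and with no filter on low counts, at 0.98), and the second Atp5o identifier (1.11, adjusted p = 0.0335), on 1, 1, 4 and 7 UMIs.

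The subunits coded by mitochondrial DNA were not lower in neutrophils by this test. In edgeR 0 of 13 were called in neutrophils, and 0 of 13 had an unadjusted p under 0.05, against 79 of the 88 members and 55.9% of all genes. The median over the 13 was 0.07. The ratio of their UMIs to the members' UMIs was 1.15, 0.807 and 2.30 in the neutrophils of the allografts and 0.741 in the isograft, against 0.371, 0.395, 0.514 and 0.471 in macrophages. The ratio was thus higher in neutrophils than in macrophages in every library. Other classes were not all low, with isograft T cells at 1.01, above the isograft neutrophils. Mural cells were at 0.861, 0.676 and 0.869 in the allografts, and endothelial cells at 0.949 in allogeneic replicate 3. Neutrophils also had few UMIs per cell, on average 2471, 2256 and 2350 per allograft against 1400 for the isograft, and their 10 markers alone took 71255 to 116022 CPM. The part of RNA content in the difference was not tested. Among the other lists, the neutrophil difference took in both cytochrome c and cytochrome c1 (Cycs and Cyc1), 2 of 4 complex II genes, 9 of 13 citric acid cycle genes, 6 of 7 mitochondrial carriers and channels and 21 of 30 other assembly factors. Of 10 regulators of mitochondrial biogenesis, 4 were lower and 1 higher. The background for all these lists was 26.7% of all genes lower and 17.2% higher.

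Macrophages had 8 members called higher than in the other classes and 0 lower, against a background of 14.9% of all genes higher. The median over the members was 0.71 and over all genes 0.17, and neutrophils are among the classes compared with. In either direction the count was 5 without replicate 1 and 4 without replicate 3, where 18.1% and 19.7% of all genes were called. Among those called were Cox7a1 (2.01), the heart and muscle form of a complex IV subunit, Ndufc1 (1.25), Ndufc2 (1.14) and Cox6a2 (1.23), the heart and muscle form of another complex IV subunit, whose gene overlaps Itgad on the opposite strand. The second Atp5o identifier (1.48) was the other among the 5 largest. Cox7a1 was measured at 9.03, 8.05 and 13.8 CPM in the macrophages of allografts, against 14 in those of the isograft, while the 10 heart muscle markers summed to 147, 167, 57.8 and 32.1 CPM in these cells. The part of free heart muscle RNA in these levels was not tested. Monocytes had 3 members called (Cox6b2 1.99, Uqcrfs1 1.03 and Ndufa4l2 -2.22; background 21.5%), and 1 without replicate 1 (16.9%). T cells had 5 (Ndufaf4 1.05, Cox4i2 -2.80, Ndufa4l2 -2.67, Cox6a2 -1.93 and the second Atp5o identifier -1.51; background 42.5%). Without allogeneic replicate 1 the T cell count was 2 (background 30.7%), and Cox6a2 then stood at 0.51.

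Tissue-specific isoforms separated the stromal and muscle classes. Cox4i2 and Ndufa4l2, isoforms of Cox4i1 and Ndufa4 known as oxygen-responsive forms, were the members that set mural cells (pericytes and smooth muscle of vessels) apart. Cox4i2 (chromosome 2, 152754173 to 152765037) was measured at 440, 448 and 572 CPM in the mural cells of the allografts and 682 in the isograft, against 9.46 to 28.0 in endothelial cells and 14.9 to 27.6 in fibroblasts. No mural value came near those of the other classes. Mural cells were few (13, 36 and 24 in the allografts, 197 in the isograft) and entered the class comparison only at a minimum of 10 cells per library, chosen after seeing the data. There Cox4i2 was higher by 7.57 (SE 0.29, adjusted p = 3.13e-18) and Ndufa4l2 by 6.69 (SE 0.25, adjusted p = 1.52e-19), 2 of 6 members called higher against a background of 15.5% of all genes. Cox6b2 (1.96), Ndufa5 (1.23) and Ndufa12 (1.11) were also among them. In either direction the mural count was 15 without replicate 1 and 10 without replicate 2, where 24.6% and 24.2% of all genes were called.

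As a share of both isoforms' UMIs, Cox4i2 made up 51.6%, 50.3% and 48.6% in allograft mural cells and 45.4% in the isograft, and 46.3% over all libraries (exact 95% interval 44.0 to 48.6, counting error only). Over all libraries the share was 3.90% in fibroblasts, 3.39% in endothelial cells and 0.710% in macrophages. For Ndufa4l2 the share in mural cells was 60.3%, 43.4% and 61.5% in the allografts and 66.2% in the isograft. It was 25% over all libraries in fibroblasts, 4.83% in endothelial cells and 0.871% in macrophages. Fibroblasts thus had much of Ndufa4l2 but little of Cox4i2. Their fitted differences from the other classes were 5.06 (SE 0.25, adjusted p = 5.29e-14) and 2.48 (SE 0.31, adjusted p = 3.96e-07), in a class with 5 members called higher and 1 lower (background 23.4% and 13.7%). The other fibroblast calls were Cox6b2 (1.76), Ndufaf2 (1.07), the second Atp5o identifier (1.05) and Cox7a1 (-1.02). In endothelial cells Ndufa4l2 (1.81) and Cox4i2 (1.69) were called higher, and Cox6b2 (-2.12) and the second Atp5o identifier (-1.76) lower, 4 of 88 members against 33.7% of all genes, and 2 without replicate 1 (25.8%).

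**Figure D2:**
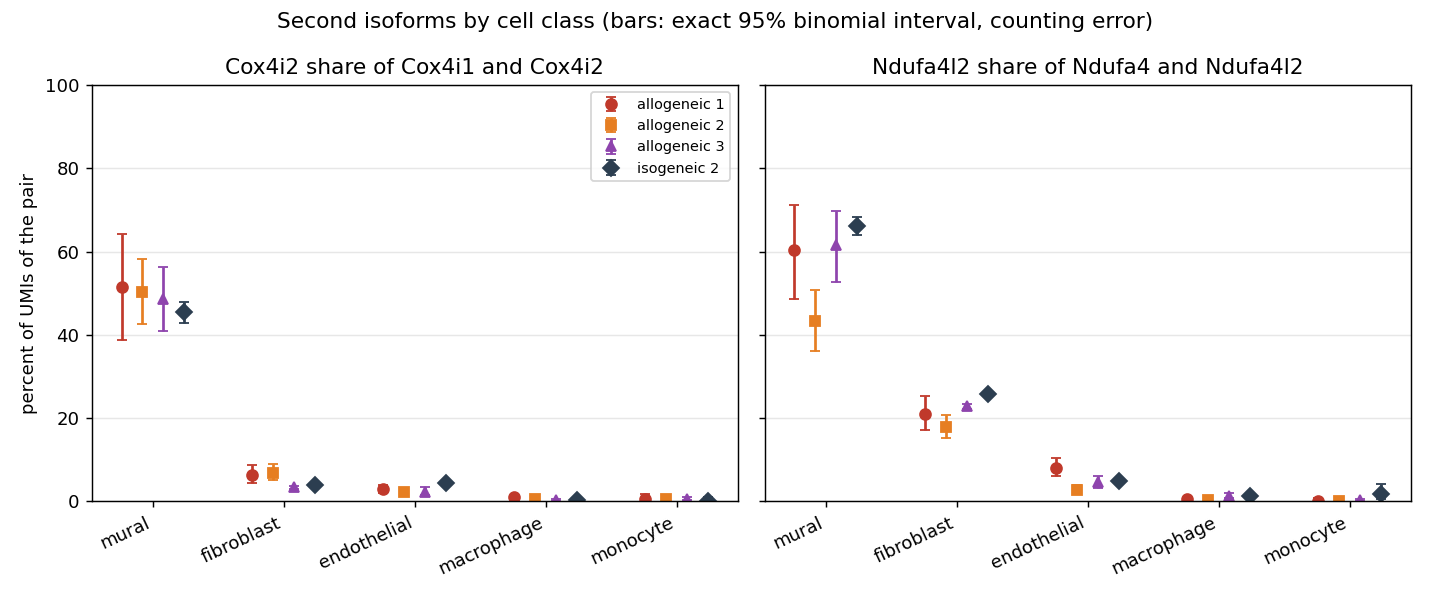
Share of Cox4i2 (left) and Ndufa4l2 (right) in the UMIs of its isoform pair (percent, vertical axis) in 5 cell classes, 1 point per library with its exact 95% binomial interval, which covers counting error only. Both shares are highest in mural cells (46.3% and 63.8% over all libraries), and in fibroblasts that of Ndufa4l2 (25%) is above that of Cox4i2 (3.90%).

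The muscle isoforms marked the droplets rich in heart muscle transcripts. Cox6a2 gave 95 of 98 UMIs of its pair there (96.9%, exact 95% interval 91.3 to 99.4), Cox7a1 22 of 86 (25.6%, 16.8 to 36.1) and Cox8b 16 of 60 (26.7%, 16.1 to 39.7). Cox4i2 had 0 of 47, which allows a share of up to 6.38%, and Ndufa4l2 0 of 92, which allows up to 3.26% (3 UMIs of the total). In macrophages the same muscle isoforms made up 4.68%, 1.75% and 0.0620% of their pairs. Such a share also falls with more of the usual isoform, so it does not show where the muscle isoforms came from.

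The comparison of allografts with the isograft asks whether respiratory chain transcripts differ between cells of genetically different and identical grafts. Only 1 member passed the test in any of the 6 classes tested at 20 cells per library, Cox7a2l in endothelial cells. In edgeR's quasi-likelihood test, 1 of 87 members was called in endothelial cells (1.15%) against 3.51% of all 12696 genes, and 0 of 89 in fibroblasts (background 3.67%), 0 of 89 in macrophages (3.79%), 0 of 84 in monocytes (2.48%), 0 of 70 in neutrophils (4.39%) and 0 of 88 in T cells (0.0%). In dendritic cells, added at a minimum of 10 cells per library, 0 of 76 were called (background 1.96%) and 5 had an unadjusted p under 0.05 (13.4% of all genes). At an unadjusted p under 0.05, the members numbered 14 in endothelial cells, 3 in fibroblasts, 5 in macrophages, 3 in monocytes, 1 in neutrophils and 39 in T cells, where 21.1%, 15%, 25.6%, 16.9%, 14% and 11.2% of all genes passed. Of these 6 classes T cells alone had a larger share among the members than among all genes. Mural cells, added at 10 cells per library, had a larger share among the members too, 17 of 77 against 596 of 4337 genes. DESeq2 called 3, 0, 1, 0, 0 and 7 members in the same order, against 5.79%, 5.35%, 10.3%, 2.92%, 3.83% and 0.898% of all genes. The counts rest on which libraries are in the fit. Without replicate 3, 35 of 87 members were called in endothelial cells (28 lower, 7 higher), 32 of 89 in macrophages (16 and 16), 11 in fibroblasts, 8 in monocytes and 14 in T cells, and the share of all genes called was then 38.6%, 51.6%, 18%, 18.3% and 3.94% in the same classes. Without replicate 1 the count was 3 in T cells and 1 in fibroblasts, where 2.04% and 6.41% of all genes were called. Without replicate 1 or 2 it was 0 in endothelial cells (3.62% and 1.07% of all genes).

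Summed by complex, the levels fell on 1 side of the isograft in several classes. In endothelial cells, complex I summed to 6453, 6601 and 5750 CPM in the allografts and 8185 in the isograft, complex III to 2057, 2094 and 2077 against 2815, complex IV to 4847, 4809 and 4510 against 5845, and complex V to 6467, 6507 and 5616 against 7958. All 4 sums were lower in every allograft, the allogeneic mean being 0.766, 0.737, 0.808 and 0.779 times the isograft. The endothelial markers of these cells moved in the same direction, 7 of the 10 being lower in every allograft and 0 higher. Their sum was 5555, 5254 and 5089 CPM against 6472. Emcn was measured at 284, 309 and 316 against 593, Ptprb at 224, 234 and 259 against 446 and Esam at 486, 426 and 458 against 760, whereas Kdr, Egfl7 and Flt1 overlapped. The 10 mural markers summed to 143, 174 and 268 against 502 CPM in the same class. The 10 heart muscle markers went the other way, at 248, 210 and 74.4 against 69.2, 5 being higher in every allograft and 0 lower. Fibroblast markers overlapped in sum (82.1, 121 and 714 against 681). The part of this marker mix in the members' sums was not tested. Of the 87 members tested, 63 (72.4%) were lower in all 3 allografts, against a background of 37.6% of all genes, and 3 (3.45%) were higher in all 3, against 28.4%. The median difference was -0.27 over the members and 0.00 over all genes. The 4 sums were 0.635, 0.573, 0.622 and 0.564 times the isograft in mural cells, where 71 of 77 members (92.2%) were lower in all 3 allografts against 21.6% of all genes, and 0 higher against 31.4%. The mural median was -0.80 over the members and 0.12 over all genes.

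**Figure D3:**
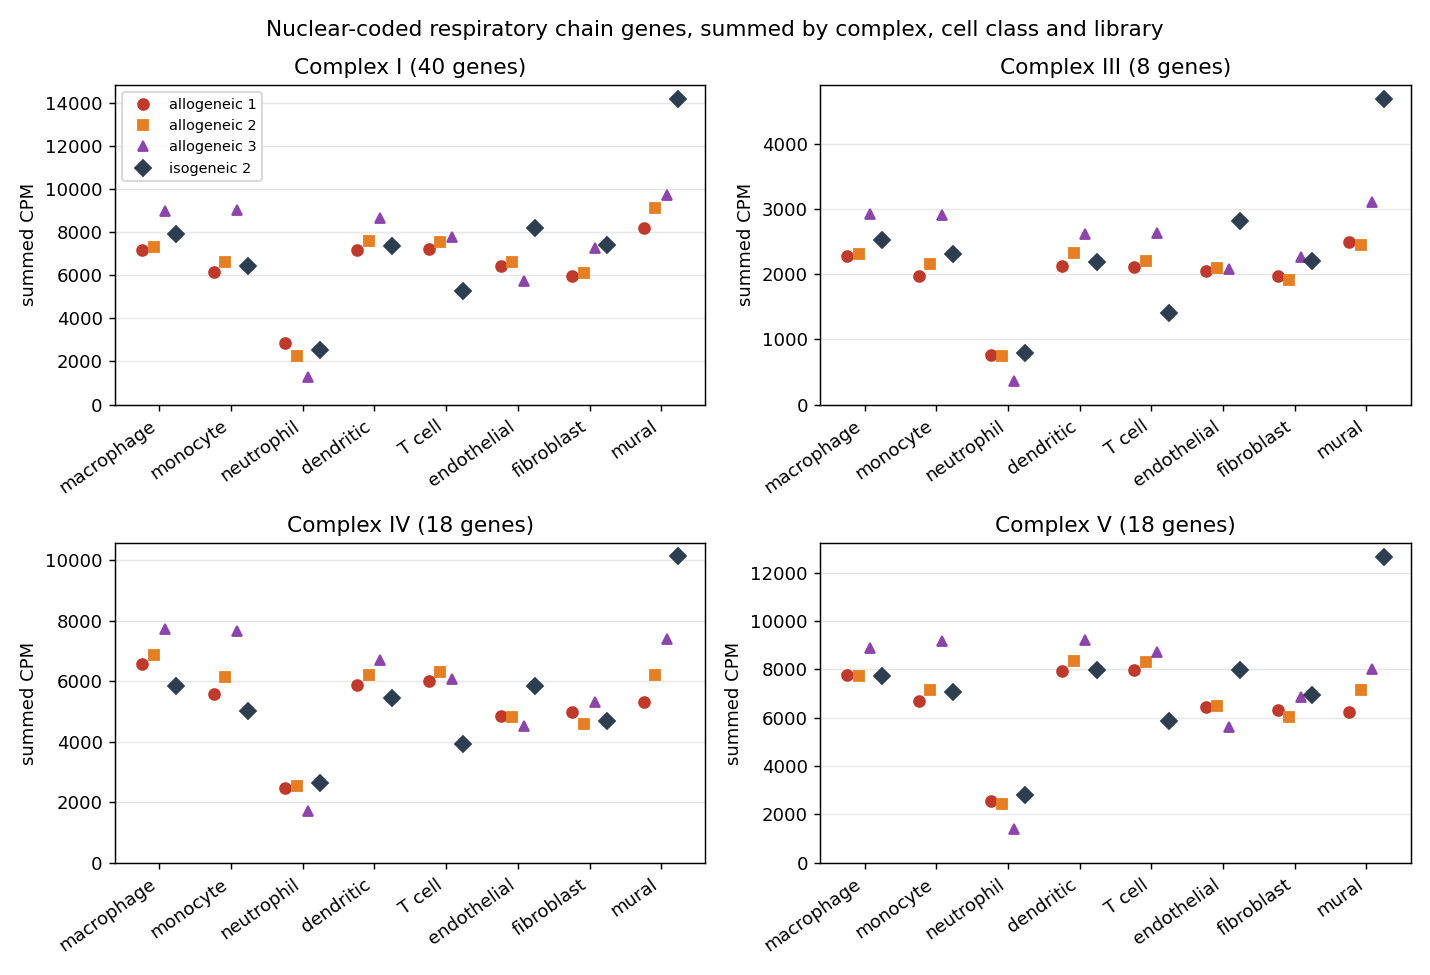
Summed CPM of the members of complexes I, III, IV and V (vertical axis) in each library, by cell class, in 1 panel per complex, with red, orange and purple points for allogeneic replicates 1, 2 and 3 and a dark diamond for the isograft. In endothelial and mural cells every allogeneic point lies below the isograft for all 4 complexes.

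In macrophages only complex IV stood to 1 side, at 6572, 6854 and 7730 CPM in the allografts and 5836 in the isograft, a factor of 1.21, while complexes I, III and V overlapped. In monocytes it was 5568, 6143 and 7664 against 5020 (1.29) and in dendritic cells 5874, 6206 and 6708 against 5436 (1.15), again the only 1 of the 4 sums with no overlap. The dendritic value depends on the scaling, being 0.00 on the log2 scale with TMM library sizes. By CPM, complex I (0.874) and complex V (0.926) were lower in every allograft in fibroblasts, and complexes III (0.788), IV (0.851) and V (0.763) in neutrophils. The neutrophil sums depend on the scaling too, with TMM factors of 1.13, 1.00 and 0.787 in the allografts and 1.13 in the isograft. In neutrophils 26 of 70 members (37.1%) were lower in all 3 allografts, close to the background of 36.6%, and 0 were higher (background 21.8%). In fibroblasts the count was 26 of 89 lower (29.2%, background 29.3%) and 12 higher (13.5%, background 26.9%). In macrophages it was 16 lower (18%, background 37.1%) and 21 higher (23.6%, background 31.6%), in monocytes 6 lower (7.14%, background 26.6%) and 36 higher (42.9%, background 43.4%), and in dendritic cells 15 lower (19.7%, background 22.4%) and 32 higher (42.1%, background 42.7%). T cells had higher sums in every allograft (1.43, 1.66, 1.56 and 1.42 times the isograft). Of 88 members there, 73 (83%) were higher in all 3 (background 58.3%) and 6 (6.82%) lower (background 32.5%), but in this shallow class the median fitted difference over all genes was 1.12 and over the members 1.00. These counts by CPM depend on the scaling too, as only 1 of the 88 fitted differences was negative. The TMM factors were 0.976, 0.960 and 0.881 in the allografts and 1.21 in the isograft.

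Cox7a2l codes a protein that joins complexes III and IV in supercomplexes (also named SCAF1). Cox7a2l (chromosome 17, 83501918 to 83517330, minus strand) was measured at 117, 99.3 and 118 CPM in allograft endothelial cells and 264 in the isograft. Every allograft was below the isograft, by -1.19 on the log2 scale (SE 0.21, adjusted p = 0.0437). In mural cells, added at the minimum of 10 cells, the values were 80.0, 112 and 95.4 against 244 (-1.42, SE 0.46, adjusted p = 0.0404), the only 1 of 77 members called there (1.30%) against a background of 5.16%. Without replicate 3 the mural count was 15, all lower, against 8.99% of all genes. The endothelial call ended without replicate 1 (adjusted p = 0.106), without replicate 2 (0.234) and with a looser gate (0.0512), and the mural one without replicate 1 (0.129), without replicate 2 (0.132), with DESeq2 (0.664), with no filter on low counts (0.0534) and with a looser gate (0.0536). The direction was negative in all of these.

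The other classes followed the same order without passing the test. Fibroblasts had 91.9, 92.3 and 119 CPM of Cox7a2l against 168 (-0.79, adjusted p = 0.216), monocytes 141, 133 and 139 against 197 (-0.65, adjusted p = 0.242) and macrophages 190, 160 and 150 against 197 (-0.22, adjusted p = 0.544). T cells had 155, 146 and 136 against 225 and dendritic cells 196, 163 and 184 against 269. Only in neutrophils did the groups overlap, at 57.8, 86.2 and 24.5 against 79.7. Cox7a2l was thus lower in all 3 allografts in 7 of 8 classes, as were Uqcrh, the hinge subunit of complex III, and Ndufs8, an iron-sulphur subunit of complex I, while Ndufb11 was in 6. At 7 or more classes there were 3 of the 69 members measured in all 8, close to the background of 4.27% of 2508 genes. At 6 or more there were 4 of 69, against a background of 8.21%. Since the classes share libraries, they are not independent of each other.

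Ndufa4, named as a complex I gene but now regarded as a subunit of complex IV, was low in allograft endothelial cells without passing the test. In endothelial cells Ndufa4 (chromosome 6, 11900292 to 11907497, minus strand) was measured at 247, 269 and 369 CPM in the allografts and 779 in the isograft. All allografts were below the isograft, by -1.36 (SE 0.26), but the adjusted p was 0.0517. The p fell under the threshold with DESeq2 (0.000447), with no filter on low counts (0.0124), with doublets kept (0.0428), with a stricter gate (0.0363) and without replicate 3 (1.5e-29). It was 0.121 without replicate 1 and 0.220 without replicate 2. In macrophages the values were 288, 322 and 483 against 640 (-0.79, SE 0.32, adjusted p = 0.207) and in fibroblasts 223, 340 and 517 against 627 (-0.85, SE 0.43, adjusted p = 0.422). Replicate 3 was nearest the isograft in all 3 of these classes. Monocytes (349, 401 and 565 against 495) and neutrophils (186, 61.6 and 47.8 against 128) overlapped. Mural cells had 413, 571 and 354 against 665, dendritic cells 580, 545 and 623 against 637, and T cells the opposite order, 723, 710 and 766 against 450.

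AA467197, a paralogue of Ndufa4 that is not a member and was added after its values had been seen, went the other way. Its protein has been reported to take the place of NDUFA4 in complex IV, and its gene (chromosome 2, 122636986 to 122641191, plus strand) hosts the microRNA Mir147 (hairpin at 122640803 to 122640881). In endothelial cells AA467197 was measured at 1362, 1409 and 848 CPM in the allografts and 73.7 in the isograft (4.09, SE 0.46, adjusted p = 0.0139), in macrophages at 244, 230 and 165 against 7.90 (4.77, SE 0.38, adjusted p = 0.0140) and in fibroblasts at 1003, 663 and 163 against 0.726 (9.60, SE 1.26, adjusted p = 0.00492). The groups were far apart in all 3 classes. In monocytes the values were 174, 180 and 210 against 3.61, the last on 2 UMIs. Their ratio was 52.1 with an exact 95% counting interval of 14.4 to 430, and the test gave an adjusted p of 0.00294. AA467197 stayed past the threshold under every alternative run in these 4 classes.

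**Figure D4:**
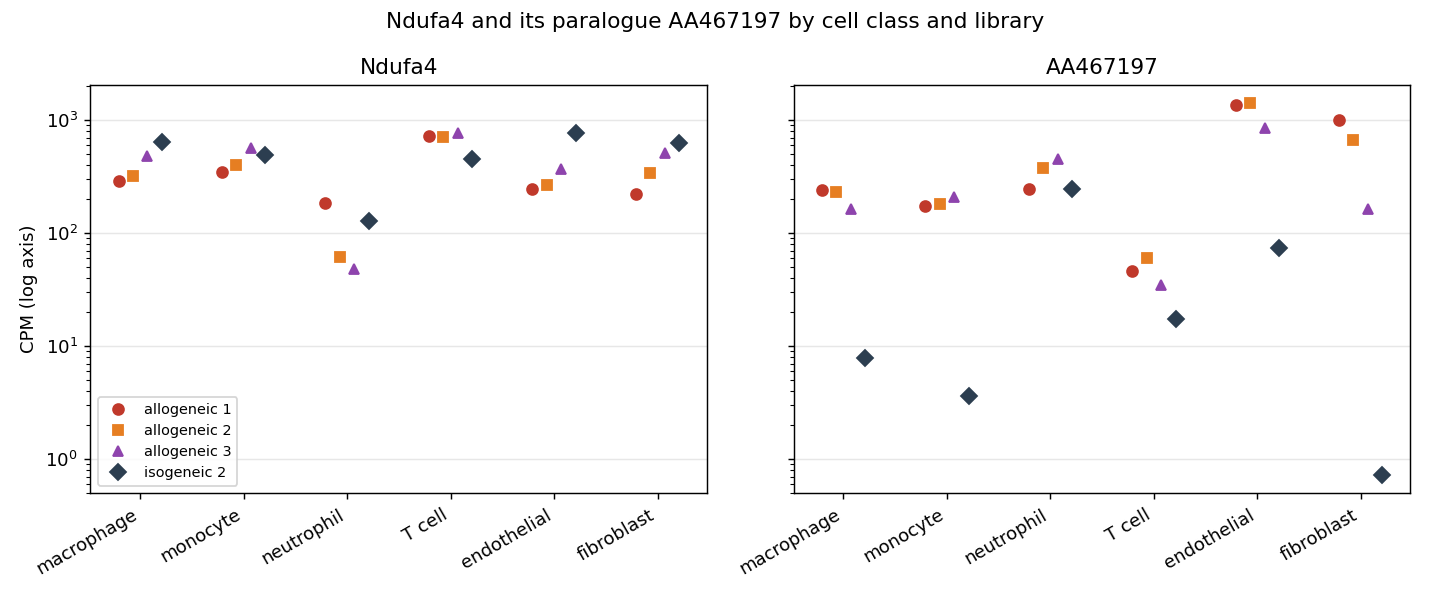
CPM of Ndufa4 and of its paralogue AA467197 (vertical axis, log scale) in each library, for 6 cell classes, with red, orange and purple points for allogeneic replicates 1, 2 and 3 and a dark diamond for the isograft. In endothelial cells Ndufa4 was lower in every allograft (247 to 369 against 779) and AA467197 higher (848 to 1409 against 73.7).

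Neutrophils had AA467197 in both kinds of graft, at 244, 378 and 451 CPM against 249 (0.81, adjusted p = 0.668), and the difference of the allogeneic effect from the other classes was -4.38 (SE 0.80, adjusted p = 0.0211). Mural cells had 66.7, 32.0 and 13.6 and dendritic cells 53.1, 54.5 and 170, with 0 UMIs in the isograft, where 3 UMIs would make 3.11 and 21.2 CPM. T cells had 46.3, 60.4 and 35.1 against 17.3, the last on 1 UMI (adjusted p = 0.590). Macrophage markers in the endothelial class summed to 715, 487 and 107 CPM against 260 in the isograft. In the fibroblast class monocyte markers summed to 1413, 1163 and 3686 CPM in the allografts and 1390 in the isograft, macrophage markers to 695, 563 and 536 against 204, and endothelial markers to 59.4, 151 and 142 against 69.0. Among the allografts, fibroblast replicate 3 was the highest in monocyte markers and the lowest in both macrophage markers and AA467197. Endothelial replicate 3 was also the lowest allograft in both macrophage markers and AA467197. The part of RNA from other cells in these levels was not tested.

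The tissue isoforms did not pass the test between grafts. Cox4i2 in endothelial cells was measured at 12.2, 9.89 and 9.46 CPM in the allografts and 28.0 in the isograft (-1.36, SE 0.28, adjusted p = 0.0617), with no overlap. The 10 mural markers moved with it, at 143, 174 and 268 against 502 CPM in the same cells, and their part in the value was not tested. Ndufa4l2 was lower in every allograft in endothelial cells (21.7, 7.87 and 17.6 against 40.4, adjusted p = 0.193), fibroblasts (59.4, 73.7 and 153 against 218, adjusted p = 0.254) and mural cells (627, 437 and 566 against 1302, adjusted p = 0.115). In the mural class the marker mix differed too, with the pericyte genes Rgs5 at 1254, 704 and 1703 against 4298 and Higd1b at 120, 267 and 198 against 653, while the smooth muscle gene Myh11 overlapped (2427, 2059 and 1145 against 1739). The part of that mix in the mural sums was not tested. Cox6b2, the testis form of a complex IV subunit, was lower in macrophage allografts at 0.967, 0.970 and 1.30 against 4.55 CPM (-2.10, SE 0.42, adjusted p = 0.0633).

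Cox5a and Cox8a, subunits of complex IV, were above the isograft in the macrophages of every allograft. Cox5a was measured at 929, 1023 and 770 CPM in the allografts and 547 in the isograft (0.75, SE 0.25, adjusted p = 0.149; DESeq2 0.0479) and Cox8a at 1433, 1537 and 1610 against 1073 (0.53, SE 0.20, adjusted p = 0.187). The CPM of both was also above the isograft in every allograft in monocytes, dendritic cells, fibroblasts and T cells. In the other 3 classes it was not. Cox8a was below the isograft in every allograft in endothelial cells (742, 762 and 683 against 878), mural cells (1027, 1339 and 1669 against 2198) and neutrophils (655, 636 and 561 against 809). Cox5a was below it in mural cells (587, 507 and 436 against 675) and overlapped in endothelial cells and neutrophils. The ratio of complex IV to complex I UMIs, a measure that needs no library scaling, was 0.917, 0.937 and 0.862 against 0.739 in macrophages, 0.902, 0.927 and 0.849 against 0.780 in monocytes, 0.832, 0.752 and 0.727 against 0.633 in fibroblasts and 0.751, 0.729 and 0.784 against 0.714 in endothelial cells. T cells (0.829, 0.831 and 0.778 against 0.747) and dendritic cells (0.821, 0.819 and 0.776 against 0.736) had the same order. The ratio was higher in every allograft in these 6 of 8 classes and overlapped in neutrophils (0.861, 1.12 and 1.33 against 1.04) and mural cells (0.650, 0.681 and 0.759 against 0.714). The ratio was chosen after the data had been seen and carries no test.

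**Figure D5:**
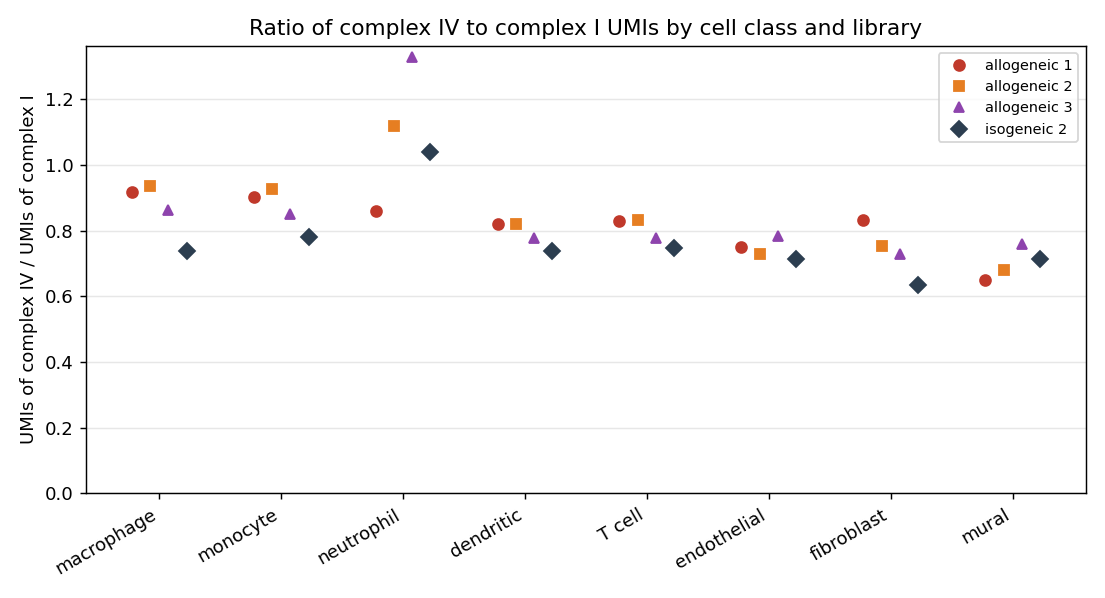
Ratio of complex IV to complex I UMIs (vertical axis, no unit) in each library, by cell class, with red, orange and purple points for allogeneic replicates 1, 2 and 3 and a dark diamond for the isograft. The allogeneic points lie above the isograft in 6 of 8 classes and overlap it in neutrophils and mural cells.

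The count depended on a few genes. Without Ndufa4 and Ndufa4l2 the ratio was higher in every allograft in 5 of 8 classes, endothelial cells then overlapping. With Ndufa4 counted in complex IV it was higher in 5 and lower in 1, mural cells. With Ndufa4, Ndufa4l2, Cox5a and Cox8a all left out it was higher in 3 (macrophages, monocytes and fibroblasts) and lower in 1, T cells. For complex V over complex I, the ratio was higher in 3 classes and lower in 3, and for complex III over complex I higher in 3 and lower in 2.

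Whether the allogeneic effect differed between classes was tested with the library as a block, each class against the mean of the others. No member passed in endothelial cells, fibroblasts, macrophages, monocytes or neutrophils (background 0.496%, 0.624%, 0.0376%, 0.0225% and 0.428%), where 19, 5, 6, 1 and 19 of 88 had an unadjusted p under 0.05, against 10.9%, 9.38%, 10.1%, 6.63% and 12.4% of all genes. In T cells 10 members had a higher effect (background 1.44%), among them Ndufb8 (2.68, SE 0.65, adjusted p = 0.0376), measured at 287, 310 and 255 CPM against 69.2, and Atp5c1 (2.27, SE 0.39, adjusted p = 0.00548), at 480, 542 and 410 against 173. The isograft values rest on 4 and 10 UMIs, and the median effect was close in both sets, 1.32 over all genes and 1.29 over the members. At an unadjusted p under 0.05 there were 56 of 88 members and 1799 of 13307 genes. The part of the shallow isograft class in this was not tested. The T cell count was 1 without replicate 1, 0 without replicate 2, 21 without replicate 3 and 0 with a stricter gate, where 0.276%, 0.0223%, 2.27% and 0.307% of all genes had a higher effect. In mural cells, at 10 cells per library, 10 members had a lower effect (background 0.471%). The largest were Atp5o (-1.71, SE 0.36, adjusted p = 0.0331), a stalk subunit of the ATP synthase, at 147, 155 and 204 against 385, Atp5pb (-1.64, SE 0.32, adjusted p = 0.02) at 333, 437 and 477 against 1089, and Atp5b (-1.64, SE 0.33, adjusted p = 0.0228), the catalytic beta subunit, at 440, 427 and 463 against 873. All allografts were below the isograft in these 3 genes. The median was -1.14 over the members and -0.65 over all genes, and the mural count was 0 without replicate 1 or 2, where 0 genes were called lower, and 50 without replicate 3, where 2.61% were. Without replicate 3, 6 members had a lower effect in endothelial cells, 9 in fibroblasts and 1 in macrophages, against 2.92%, 3.36% and 2.81% of all genes.

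Among the other genes of the pathway, few passed between grafts. In macrophages Coa5 and Sco1, which act in the assembly of complex IV, were higher, 2 of 31 tested assembly factors (background 3.79%). Coa5 was measured at 98.0, 102 and 109 CPM in the allografts and 35.3 in the isograft (1.56, SE 0.19, adjusted p = 0.0280) and Sco1 at 10.8, 10.6 and 11.7 against 3.28 (1.76, SE 0.28, adjusted p = 0.0433). Ppargc1b, a coactivator of mitochondrial biogenesis, was at 25.5, 28.0 and 33.3 against 5.96 (2.29, SE 0.25, adjusted p = 0.0232), 1 of 10 regulators (background 3.79%). All 3 had groups that were well apart. The Coa5 call ended without replicate 1 (adjusted p = 0.114) and without replicate 2 (0.0741), the Sco1 call without replicate 1 (0.210), without replicate 2 (0.165) and with a looser gate (0.0519), and the Ppargc1b call without replicate 1 (0.0616), with the difference positive in each. In mural cells Fh1, the fumarase of the citric acid cycle, was lower at 40.0, 64.0 and 40.9 against 142 (-1.60, SE 0.50, adjusted p = 0.0319), and in dendritic cells Hif1a was higher at 279, 256 and 218 against 42.5 (2.34, SE 0.53, adjusted p = 0.0230). Fh1 was 1 of 12 citric acid cycle genes tested there (background 5.16%) and Hif1a 1 of 3 regulators (background 1.96%). The Fh1 call ended without replicate 1 (0.0850), without replicate 2 (0.143) and with DESeq2 (0.829), and the Hif1a call with DESeq2 (0.147), in the same direction as before. No gene of complex II, of cytochrome c and c1, of the carriers and channels or of the 13 subunits coded by mitochondrial DNA was called in any of the 8 classes by edgeR. At an unadjusted p under 0.05 there were 1 of 30, 6 of 16, 9 of 57 and 2 of 101 over all classes, in that order, against 17.4% of all genes added up over the 8 classes.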

How the data were processed

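Single cells of transplanted mouse hearts (day 5; 3 allogeneic libraries, 1 isogeneic) were captured with 3 prime chemistry, and the authors deposited raw UMI counts per gene and barcode. Cell Ranger 3.1.0 and build mm10 are named in the submitters' processing notes, whereas the file headers give version 6.1.0. The use of strand in counting is not stated in any source used here.

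Barcodes with at least 500 UMIs, 300 genes and at most 20% mitochondrially coded UMIs were kept, and Scrublet doublets (0.8% per 1000 barcodes) were removed. A class needed at least 3 of its 10 markers and 2 more than any other class, and heart muscle droplets needed at least 5% heart muscle marker UMIs. Counts were summed per library and class (at least 20 cells, with 10 added after seeing the data) and tested in edgeR 4.0.16 (R 4.3.3, limma 3.58.1) by the quasi-likelihood test with TMM scaling and filterByExpr, with Benjamini-Hochberg adjustment over all genes. Calls needed an adjusted p under 0.05, and an absolute log2 difference of at least 1 between classes. Comparisons between classes, and of the allogeneic effect between classes, had the library as a block. SE is the absolute log2 change over the square root of F, an approximation. The test of 3 libraries against 1 has 2 residual degrees of freedom before sharing across genes, and it takes the spread of the allogeneic libraries to hold for the single isogeneic one. An exact permutation test could not go below 0.25 here and was not used. Scripts ran in Python 3.11.15 with scanpy 1.11.5, NumPy 2.4.6, SciPy 1.17.1, pandas 2.3.3 and matplotlib 3.10.9, and the tests were tried on simulated counts first. Alternatives were DESeq2 1.42.0, median-of-ratios scaling, no filter on low counts, each library left out, doublets kept, other gates and other mitochondrial and heart muscle limits.

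Genes were named by a written rule: both genes of each isoform pair, called members by size of change, and the members or lists a comparison turned on. AA467197 and the ratio of complex IV to complex I were added after their values were seen. The members and lists were chosen with earlier results of these data known. The result for 1 called member is not reported here.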

Additional observations from a re-analysis of the deposited data

Results flagged for a closer look

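In 20 cases the allogeneic effect on a member in 1 class differed from the mean of that effect in the other classes by edgeR's interaction test (log2, adjusted p under 0.05). In T cells the effect was higher for Ndufb8 (2.68), Atp5c1 (2.27), Atp5md (2.01), Uqcr10 (1.91), Atp5mpl (1.88), Ndufa2 (1.81), Ndufb9 (1.59), Atp5a1 (1.5), Uqcrh (1.49) and Cox8a (1.35). These isograft levels rest on 4 to 36 UMIs of 32 cells, and the median over all genes was 1.32. In mural cells the effect was lower for Atp5o (-1.71), Atp5pb (-1.64), Atp5b (-1.64), Ndufab1 (-1.59), Cox7a2 (-1.35), Cox5a (-1.34), Cox6b1 (-1.34), Atp5c1 (-1.31), Cox8a (-1.31) and Uqcrq (-1.29), where the median over all genes was -0.65. Adjusted p ran from 0.00548 to 0.0387 in T cells and from 0.02 to 0.0477 in mural cells.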

How the results depend on the processing

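No paired analysis was possible because the groups share fewer than 2 replicate numbers. Members called between allografts and the isograft numbered 7 in T cells, 3 in endothelial cells, 1 in macrophages and 0 in mural cells with DESeq2, where 0.898%, 5.79%, 10.3% and 2.86% of all genes were called. With no filter on low counts they numbered 3 in endothelial cells, 2 in fibroblasts, 1 in macrophages, 1 in monocytes and 0 in mural cells (4.65%, 7.09%, 5.70%, 4.71% and 1.60% of all genes). Endothelial cells had 2 with doublets kept (4.35%), 2 with a stricter gate (5.17%) and 0 with a looser gate (2.92%), where mural cells had 2 (5.07%). Leaving out 1 allogeneic library at a time gave 0 to 14 in T cells (0% to 3.94% of all genes), 0 to 35 in endothelial cells (1.07% to 38.6%), 0 to 11 in fibroblasts (2.1% to 18%), 0 to 32 in macrophages (0.733% to 51.6%), 0 to 8 in monocytes (0.481% to 18.3%), 0 to 15 in mural cells (3.92% to 8.99%) and 0 to 2 in dendritic cells (2.92% to 7.76%). When the allogeneic effect was compared across classes, T cells had 3 with no filter (1.18%) and 0 with a stricter gate (0.747%), and leaving out 1 library gave 0 to 21 in T cells (0.208% to 3.57%), 0 to 6 in endothelial cells (0% to 4.25%), 0 to 9 in fibroblasts (0.0223% to 5.36%), 0 to 1 in macrophages (0% to 4.63%) and 0 to 50 in mural cells (0.00894% to 3.03%). Between classes, T cells had 2 and macrophages 5 with the minimum of 10 cells (35.4% and 19.4%), fibroblasts 3 and macrophages 4 with doublets kept (36% and 20.4%), and fibroblasts 3 in the allogeneic libraries only (33.2%). Leaving out 1 library gave 2 to 5 in T cells (30.7% to 39.8%), 2 to 5 in endothelial cells (25.8% to 31.3%), 4 to 7 in macrophages (18.1% to 19.7%), 1 to 3 in monocytes (16.9% to 18.6%), 1 to 1 in dendritic cells (13.2% to 13.3%) and 8 to 15 in mural cells (24.2% to 26%). With TMM library sizes the log2 sums were 0.89, 1.10, 1.01 and 0.88 in T cells and -0.12, -0.09, 0.00 and -0.11 in dendritic cells for complexes I, III, IV and V, and -0.39 for complex III in endothelial cells. With a stricter gate they were 0.31 for complex I and 0.38 for complex V in T cells, and the mean Cox4i2 share in mural cells was 54.7%. Cox6a2 in T cells against the other classes ran from -2.41 without allogeneic replicate 2 to 0.51, a reversal, without allogeneic replicate 1. The cause was not tested for any of these. Of the values for single genes, 624 kept their direction and side of the threshold, 117 lost and 33 gained the call. As for depth, 3 UMIs make 51.9 CPM in the isograft T cells, 16.0 to 40.0 in allograft mural cells, 9.95 to 21.2 in dendritic cells, 3.50 to 19.3 in neutrophils and 100.6 to 699.8 in heart muscle droplets.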
